A study of Mus musculus with 8 samples.

Results

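A set of 7 genes of glucocorticoid action on the Pomc gene, chosen by name, was followed across 8 RNA-seq libraries of AtT-20. These mouse pituitary tumour cells are a standard corticotrope model and express Pomc, from which the hormone ACTH is cut. The 7 are the glucocorticoid receptor gene Nr3c1, the corepressor genes Smarca4 and Hdac2, and the receptor's known target genes Sgk1, Tat, Mt1 and Mt2. All 7 had values among the 12193 gene loci of the tables, and all 7 passed the filter on low values that left 10874 loci to test.

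The series asks how signalling through the receptor of epidermal growth factor (EGF) acts on transcription in these cells. Each of its 4 groups has n = 2 libraries. The first group, Neo water, is the control genotype Neo given water and labelled 3 h. The second, EGFR water, carries EGFR, the EGF receptor, and was given water, also labelled 3 h. The other groups, EGF 3 h and EGF 18 h, are the EGFR genotype given EGF for 3 h or for 18 h. All groups are AtT-20 cells grown in medium with fetal bovine serum, and the labels name no added glucocorticoid. There is no Neo group with EGF and no water group at 18 h, so EGF and time in culture cannot be told apart at 18 h. The labels do not say whether a genotype is 1 clone or a pool, which species the EGFR came from or whether replicates were separate cultures. The p-values therefore measure the spread between these libraries, which may be technical.

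The glucocorticoid receptor is a hormone-activated transcription factor that waits in the cytoplasm on chaperones and, with its ligand, enters the nucleus. It raises genes such as Sgk1, Tat, Mt1 and Mt2 from response elements in their DNA, and in corticotropes it represses Pomc, which is the pituitary arm of glucocorticoid feedback. For this repression it works with Smarca4 (also called Brg1), the ATPase of the SWI/SNF chromatin remodelling complex, and with the histone deacetylase Hdac2.

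Sgk1, serum- and glucocorticoid-induced kinase, fell by 64.5% at 3 h of EGF and fell by 54.8% at 18 h. Tat, tyrosine aminotransferase, fell by 51.3% and fell by 54.4%. Nr3c1 itself fell by 18.1% and fell by 22.5%. Hdac2 fell by 12.7% at 18 h. Rescaling all libraries to a common FPKM sum, 1 of the 18 alternative analyses, ended the calls of Nr3c1 at 3 h (limma adjusted p 0.0577) and of Hdac2 at 18 h (limma adjusted p 0.134). Smarca4 did not pass the test in any comparison. Mt1 and Mt2, the metallothioneins, were lower in the EGFR than in the Neo genotype, calls that were lost in 9 and 11 of the 18, and did not pass the test at either time of EGF. Mt1 at 18 h did pass, as higher, in 1 of the 18. The plot of every library shows these levels.

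**Figure D1:**
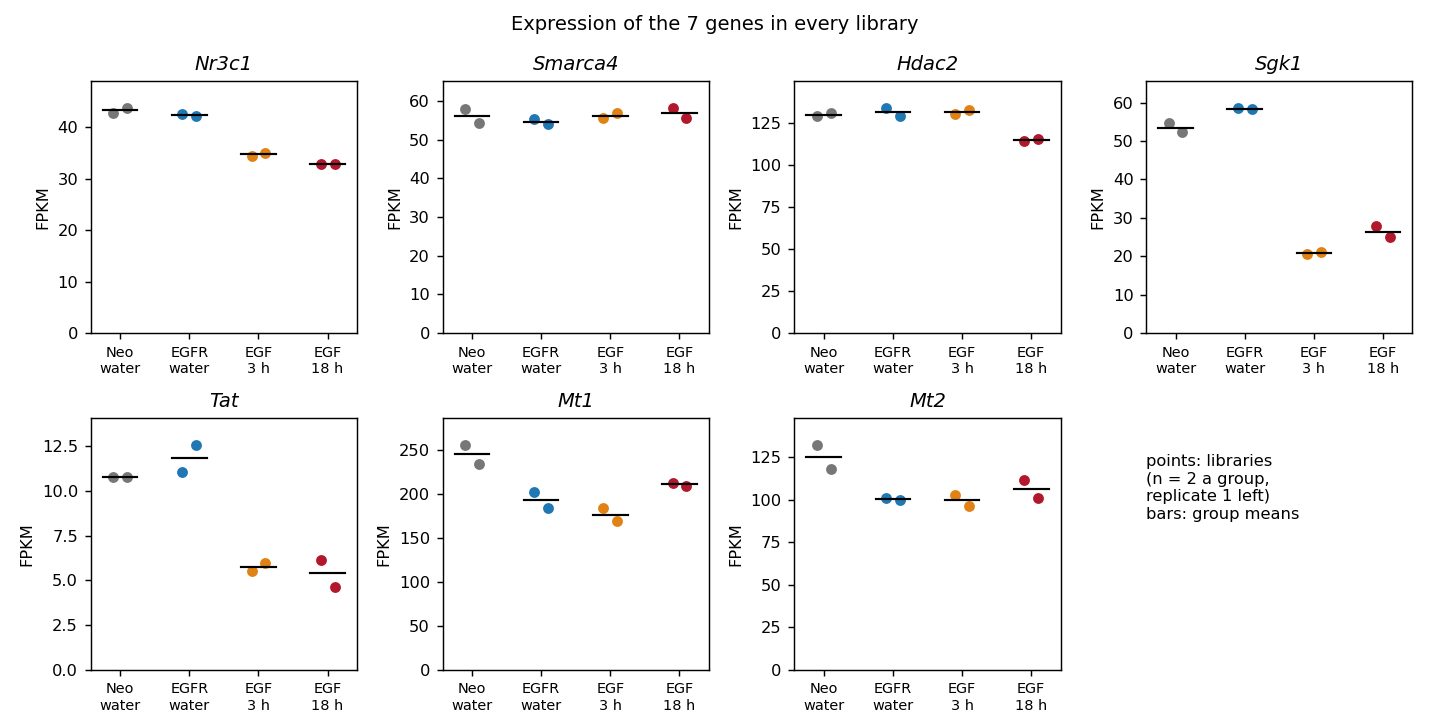
Expression of the 7 genes in FPKM (y axis, linear from 0) in each library of the 4 groups (x axis), with points for libraries and bars for group means. Sgk1 stands between 52.3 and 58.6 FPKM in the 4 water libraries and between 20.5 and 28.0 in the 4 EGF libraries, while Smarca4 stays between 54.1 and 58.2 in all 8.

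Upstream sequence was searched for every gene of the 7 but Nr3c1, which had no window. It is printed for the targets that moved and for the metallothioneins. The 250 bases before a RefSeq transcript start (GRCm38.p6, the mm10 assembly) were read for 6 of the 7 genes, 11 starts in all. The motifs searched on both strands were the glucocorticoid response element (the arm AGAACA, any 3 bases and the reverse arm TGTTCT), a single arm AGAACA, the metal response elements TGCACNC and TGCGCNC, the forkhead core GTAAACA, the STAT core TTCNNNGAA and the AP-1 site TGACTCA. Each full element holds 2 arms, and the same bases can match both strands. They occur in 0.00913%, 16.1%, 10.4%, 12.5%, 3.17%, 7.02% and 4.46% of 32851 promoter windows of this length. Below are the Sgk1 window that holds the full element, shown because so few promoters do, and the windows of Tat, Mt1 and Mt2, each 5′ to 3′ on the plus strand. Capitals mark the full glucocorticoid element and single arms in Sgk1 and metal response elements in Mt1 and Mt2.
Sgk1, chr10:21993640-21993889: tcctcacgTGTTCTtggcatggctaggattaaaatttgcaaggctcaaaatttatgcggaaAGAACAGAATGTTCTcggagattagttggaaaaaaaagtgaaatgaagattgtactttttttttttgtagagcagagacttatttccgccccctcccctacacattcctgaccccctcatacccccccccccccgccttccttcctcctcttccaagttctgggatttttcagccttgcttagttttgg
Tat, chr8:109990186-109990435: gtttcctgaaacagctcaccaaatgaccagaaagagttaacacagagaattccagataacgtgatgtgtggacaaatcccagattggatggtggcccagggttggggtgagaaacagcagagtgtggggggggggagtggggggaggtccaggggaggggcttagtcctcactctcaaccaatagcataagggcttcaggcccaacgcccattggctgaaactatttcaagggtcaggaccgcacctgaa
Mt1, chr8:94178839-94179088: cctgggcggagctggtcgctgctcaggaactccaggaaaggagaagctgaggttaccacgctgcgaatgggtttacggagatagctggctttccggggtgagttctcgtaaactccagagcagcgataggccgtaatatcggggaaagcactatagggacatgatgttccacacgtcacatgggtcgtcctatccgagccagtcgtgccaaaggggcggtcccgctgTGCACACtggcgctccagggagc
Mt2, chr8:94172368-94172617: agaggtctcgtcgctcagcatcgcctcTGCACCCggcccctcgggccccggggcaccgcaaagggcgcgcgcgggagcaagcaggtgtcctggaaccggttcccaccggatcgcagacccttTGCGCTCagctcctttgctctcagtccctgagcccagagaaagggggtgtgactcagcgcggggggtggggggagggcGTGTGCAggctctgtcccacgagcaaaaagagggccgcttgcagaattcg
The Sgk1 element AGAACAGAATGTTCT lies 189 to 175 bases before that start, 1 of 6 RefSeq starts of the gene with a window. Only 3 of the 32851 windows hold the full element. The Tat window holds none of the motifs. The Mt1 window holds TGCACAC 23 to 17 bases before the start, and the Mt2 window holds 3 metal response elements and an AP-1 site, TGACTCA, 79 to 73 bases before the start. Of the windows not printed, that of Smarca4 held 5 matches to TGCGCNC and that of Hdac2 held 2, counted on both strands. Metal response elements were thus not particular to the metallothionein windows. At other Sgk1 starts, a window held a single arm and a STAT core, and another window held a single arm. A match describes the letters only, and its absence from this window says nothing of elements elsewhere. The values are per gene locus, so which Sgk1 start was used was not measured.

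Expression is given as FPKM, fragments scaled to transcript length and library total, as deposited. Differences are on the scale log2(FPKM + 1), which understates the change of low genes, and were tested with limma over all 10874 loci with Benjamini-Hochberg adjustment at 0.05. The depth, estimated from the smallest FPKM steps, was 51.4 to 57.4 M fragments per library, and replicates correlated across genes at r = 0.985 to 0.987. Egfr, the gene that the genotype adds, was 0.147 ± 0.114 FPKM (SD, n = 2) in Neo water and 26.7 ± 1.13 in EGFR water, which checks the genotype labels. The corticotrope markers Pomc, Tbx19, Neurod1, Pcsk1 and Pitx1 were at 10.1 FPKM or more in every library, and Crhr1 had no value. Of 14 markers of other pituitary cells, Gata2 (9.02 to 13.7 FPKM) and Sox2 (3.50 to 4.89) had values, and none of 16 fibroblast, endothelial and blood cell markers did. Gata2 was lower at 18 h than in EGFR water (-0.24, limma adjusted p 0.0242), while Sox2 differed by -0.19 without passing (limma adjusted p 0.0648). Both were lower at 18 h than at 3 h, Gata2 by -0.28 (limma adjusted p 0.0140) and Sox2 by -0.23 (limma adjusted p 0.0359). Neither gene was followed over the alternative analyses, and their part in the results at 18 h was not tested. Hormone genes of other pituitary cells, such as Gh and Prl, were among the 12 markers with no value. Pomc was 8864 ± 92.9 in Neo water, 8274 ± 47.4 in EGFR water, 7206 ± 318 at 3 h and 7628 ± 281 at 18 h, and passed the test in no comparison (limma adjusted p 0.382 for the genotype, 0.0531 at 3 h, 0.207 at 18 h and 0.364 between the times). Its 3 h difference of -0.20 did pass in 6 of the 18 alternative analyses, and that between the genotypes in 1. These are bulk libraries, so fewer cells with a transcript and less of it per cell cannot be told apart.

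With EGF for 3 h, 3 of the 7 genes passed the test and all 3 were lower, in a comparison where 31.5% of all genes passed and 19.7% passed as lower. With EGF for 18 h, 4 of 7 passed, all lower, against 31.9% of all genes and 18.7% as lower. Between the genotypes in water, 2 of 7 passed, both lower, against 6.01% and 2.90%. Between 18 h and 3 h of EGF, 3 of 7 passed, 2 higher and 1 lower, against 33.7%, with 17.7% higher and 16.0% lower. Both EGF times and the genotype comparison use the same EGFR water libraries, so these counts are not independent. Libraries of the compared groups did not overlap for 57.8% of all genes tested between the genotypes, 70.5% at 3 h, 72.0% at 18 h and 68.3% between the times, so non-overlap is common with 2 libraries a group. Shares of all genes were not counted for EGF libraries apart from all water libraries, or for 1 group apart from the rest. Such separations below are therefore descriptions only.

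**Figure D2:**
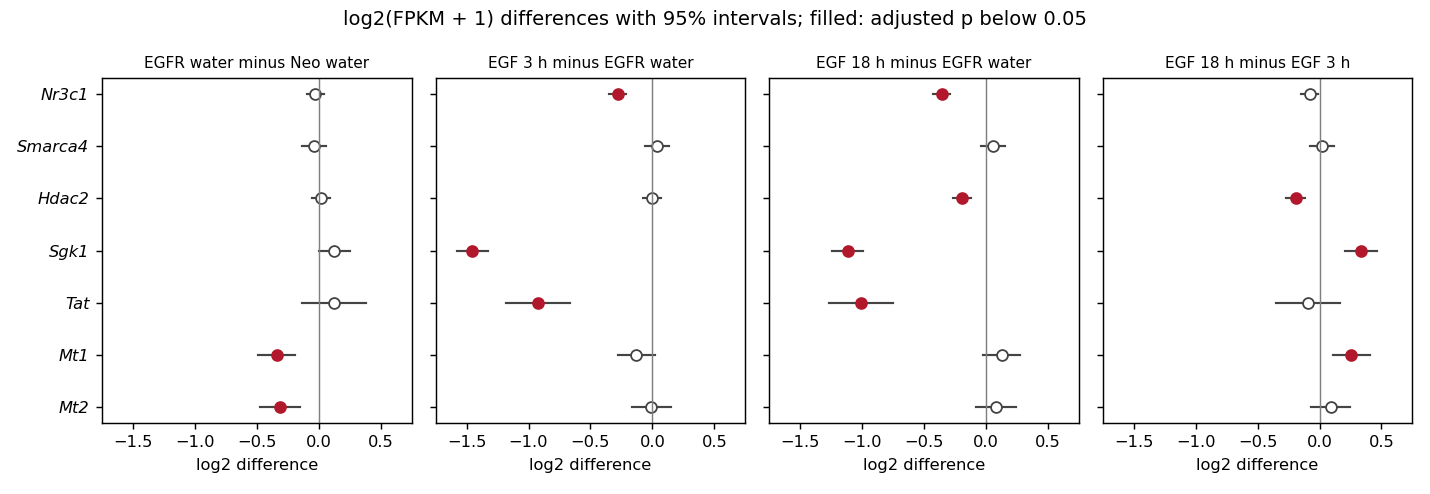
Difference in log2(FPKM + 1) (x axis) of each of the 7 genes (y axis) in the 4 comparisons, with 95% intervals, filled where the limma adjusted p was below 0.05. Sgk1 and Tat lie left of -0.9 at both times of EGF, Nr3c1 near -0.3, and Smarca4 has intervals that span 0 in all 4 panels.

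Nr3c1 (ENSMUSG00000024431, mm10 chromosome 18, 39410545 to 39491301, minus strand, protein-coding), the receptor gene, was 42.8 and 43.7 FPKM in Neo water, 42.5 and 42.2 in EGFR water, 34.4 and 35.0 at 3 h of EGF and 32.8 and 32.8 at 18 h. All 4 EGF libraries were below all 4 water libraries. Its mean fell by 18.1% at 3 h, from 42.4 ± 0.225 to 34.7 ± 0.475, a log2 difference of -0.28 (SE 0.0294, 95% interval -0.35 to -0.21, limma adjusted p 9.31e-04). At 18 h the mean fell by 22.5% to 32.8 ± 0.00134, a difference of -0.36 (-0.43 to -0.29, limma adjusted p 1.87e-04). The 3 h change did not pass when libraries were rescaled to a common FPKM sum (-0.20, SE 0.0620, limma adjusted p 0.0577), and the 18 h change did. All 4 groups share 1 variance estimate per gene, and Neo water replicate 1 had an FPKM sum of 808072 against 732723 in replicate 2. The part of this library in the lost call was not tested. Between 18 h and 3 h the Nr3c1 difference of -0.08 (-0.15 to -0.01) did not pass (limma adjusted p 0.0796), though it did in 3 of 18 alternative analyses. The genotypes in water differed by -0.03 (-0.10 to 0.04, limma adjusted p 0.568). In order of level, Neo water and EGFR water thus did not pass as different, nor did 3 h and 18 h, while both water groups stood above both EGF groups. Nr3c1 ranked as the 627th lowest difference of 10874 at 3 h and the 376th at 18 h. The mineralocorticoid receptor gene Nr3c2, its nearest relative, had no value among the loci and could not be tested.

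Of 19 other genes for the chaperones, import factors and cochaperones that hold and move the receptor, 5 were higher and 2 lower at 3 h, and 1 was higher and 3 lower at 18 h, with 0 passing between the genotypes. Their median log2 difference was 0.04 at 3 h and -0.04 at 18 h, beside -0.04 and -0.03 over all genes tested. Bag1, a cochaperone of HSP70 that binds the receptor, rose from 111 ± 1.21 to 138 ± 1.17 FPKM at 18 h (0.32, limma adjusted p 6.77e-04) and kept this call in all 18 alternatives. Hsp90aa1, a form of the chaperone HSP90, fell from 616 ± 16.7 to 535 ± 1.86 at 18 h (-0.20, limma adjusted p 0.00640), a call lost under the common sum and without EGFR water replicate 1. The other HSP90 gene, Hsp90ab1, named after its values were seen, was 399 in EGFR water and 399 at 18 h (limma adjusted p 0.999). Between 18 h and 3 h, 2 of the 19 were higher and 6 lower. The immunophilin Fkbp5 is both part of the receptor complex and a classical target, and was 9.55 FPKM in EGFR water, 10.6 at 3 h and 10.1 at 18 h.

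Of 16 genes listed as coactivators, 2 were higher and 0 lower at 3 h, 2 were higher and 3 lower at 18 h, 1 was higher between the genotypes, and 0 were higher and 2 lower from 3 h to 18 h. As a group they had a median log2 difference of 0.0009 at 3 h and -0.01 at 18 h. Ncoa3, a coactivator of the p160 family, was 7.87 ± 0.195 in EGFR water, 9.33 ± 0.0956 at 3 h and 9.61 ± 0.184 at 18 h. Its 18 h rise (0.26, limma adjusted p 0.0111) was lost without EGFR water replicate 1 and without EGF 18 h replicate 1. Hexim1, an inhibitor of P-TEFb that binds the receptor, fell from 21.6 ± 0.373 to 18.7 ± 0.315 at 18 h (-0.20, limma adjusted p 0.00624), a call lost under the common sum. Though an inhibitor, Hexim1 is counted among the 16. It is the 1 gene higher between the genotypes, 1 of the 3 lower at 18 h and 1 of the 2 lower between the times.

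Smarca4 (ENSMUSG00000032187, chromosome 9, 21616169 to 21704230, plus strand, protein-coding) was 58.0 and 54.4 FPKM in Neo water, 55.3 and 54.1 in EGFR water, 55.6 and 56.9 at 3 h and 58.2 and 55.7 at 18 h. Its libraries overlapped between the genotypes and between the EGF times. The differences from EGFR water were 0.04 at 3 h (-0.06 to 0.14, limma adjusted p 0.481) and 0.06 at 18 h (-0.04 to 0.15, limma adjusted p 0.320), and the genotypes differed by -0.04 (-0.14 to 0.06, limma adjusted p 0.590). Its 4 group means spanned 0.06 log2 units, less than for all but 2.7% of genes tested. These intervals leave room for changes up to about the size of their bounds and no test passed in any of the 18 alternatives.

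Smarca2, the other ATPase that can stand in the Smarca4 position, was 16.0 ± 0.833 FPKM in Neo water, 13.9 ± 0.0886 in EGFR water, 12.6 ± 0.243 at 3 h and 15.2 ± 0.0433 at 18 h. It rose from 3 h to 18 h (0.25, limma adjusted p 0.00457), a call kept in all 18 alternatives. Its lower level in the EGFR genotype (-0.19, limma adjusted p 0.0470) was lost in 12 of them, among them without each library in turn other than Neo water replicate 2. Its lower level at 3 h (-0.14, limma adjusted p 0.0443) was also lost in 12, among them without each library in turn other than those of Neo water. The difference of Smarca2 at 18 h from EGFR water (0.12, limma adjusted p 0.0665) did not pass, but did in 5 of the 18 alternatives. Of 23 SWI/SNF subunit genes other than Smarca4, 2 were higher and 3 lower at 3 h, 0 higher and 6 lower at 18 h, 1 higher and 5 lower from 3 h to 18 h, and 1 higher and 1 lower between the genotypes. The median of these subunits was -0.01 at 3 h and -0.04 at 18 h. At 18 h, 18.7% of all genes passed as lower. Of the 6 subunits lower there, only Bcl7a, Actl6a, Phf10 and Brd7 were followed over the alternatives. Each of them lost its 18 h call under the common sum. Brd9, a bromodomain subunit of the noncanonical complex, was 5.70 ± 0.146 in EGFR water, 6.60 ± 0.0591 at 3 h and 4.96 ± 0.107 at 18 h, and fell between the times (-0.35, limma adjusted p 0.00223). Phf10, a subunit of the PBAF form, was 92.7 ± 1.91, 92.8 ± 0.727 and 81.0 ± 0.173, and also fell between the times (-0.19, limma adjusted p 0.00407). Both of these calls were kept in all 18 alternatives.

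Hdac2 (ENSMUSG00000019777, chromosome 10, 36974544 to 37001889, plus strand, protein-coding) was 129 and 131 FPKM in Neo water, 134 and 129 in EGFR water, 130 and 132 at 3 h and 114 and 115 at 18 h. Only the 2 libraries of 18 h stood apart, below the other 6. Its mean fell by 12.7% at 18 h, from 131 ± 3.37 to 115 ± 0.672 (-0.19, SE 0.0316, interval -0.27 to -0.12, limma adjusted p 0.00386), a call lost under the common sum (-0.16, SE 0.0653, limma adjusted p 0.134). Against 3 h of EGF it was also lower at 18 h (-0.19, limma adjusted p 0.00457), in all 18 alternatives. At 3 h it differed from EGFR water by less than 0.01 log2 units (-0.07 to 0.07, limma adjusted p 0.989), and the genotypes differed by 0.02 (-0.06 to 0.09, limma adjusted p 0.786). Its 18 h difference was the 1409th lowest of 10874.

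Hdac1, the paralog that shares complexes with Hdac2, was 17.7 ± 0.0985, 16.1 ± 0.844, 17.1 ± 0.249 and 16.8 ± 0.164 FPKM in the 4 groups in the same order and passed no comparison. At 3 h it did pass in 1 of the 18 alternatives. Of 39 other genes of class I deacetylase and corepressor complexes, 6 were higher and 5 lower at 3 h, 4 higher and 6 lower at 18 h, 3 higher and 5 lower from 3 h to 18 h, and 0 higher and 1 lower between the genotypes. The median of these 39 was -0.04 at both times, as for all genes at 3 h, against -0.03 at 18 h. Rcor1, the scaffold of the CoREST complex, rose from 13.5 ± 0.116 to 18.4 ± 0.558 at 3 h (0.42, limma adjusted p 0.00142) and Arid4a, a Sin3 complex subunit, from 10.2 ± 0.266 to 12.3 ± 0.381 (0.25, limma adjusted p 0.00535), both in all 18 alternatives. Rbbp7 and Suds3, subunits that Hdac2 shares Sin3 complexes with, fell at 18 h by 0.22 and 0.21 on the log2 scale (limma adjusted p 0.00368 and 0.00249), calls lost under the common sum as that of Hdac2 was. Sin3a, the scaffold of that complex, was 12.8 ± 0.00417, 10.2 ± 0.549 and 13.8 ± 1.22 in EGFR water, at 3 h and at 18 h, and rose between the times in all 18 alternatives (0.40, limma adjusted p 0.00498).

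**Figure D3:**
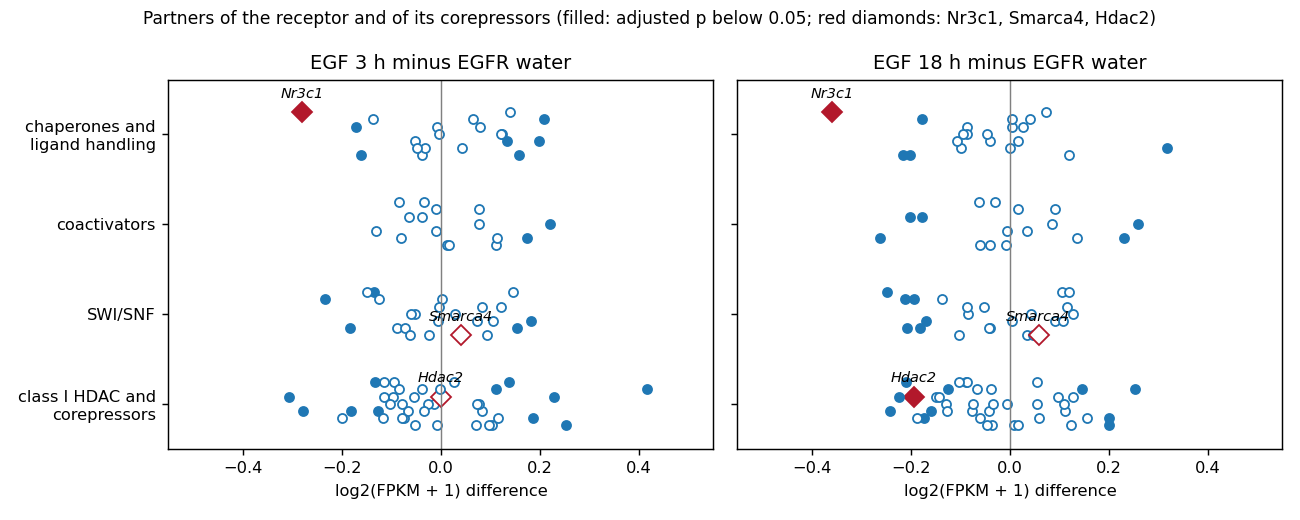
Difference in log2(FPKM + 1) from EGFR water (x axis) for each tested gene of the 4 partner lists (y axis) at 3 h and 18 h of EGF, filled where the limma adjusted p was below 0.05, with Nr3c1, Smarca4 and Hdac2 as red diamonds. Nr3c1 at -0.28 and -0.36 lies left of every other partner gene shown except 1 at 3 h, and the other filled points lie on both sides of 0.

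Sgk1 (ENSMUSG00000019970, chromosome 10, 21882184 to 21999903, plus strand, protein-coding) encodes a kinase that regulates ion transport and FOXO factors and is induced by serum as well as by glucocorticoids. Its expression was 54.7 and 52.3 FPKM in Neo water, 58.6 and 58.3 in EGFR water, 20.5 and 20.97 at 3 h and 28.0 and 24.9 at 18 h. The 4 EGF libraries were at 35.0% to 47.9% of the EGFR water mean, and the groups at 3 h and 18 h did not overlap. The mean fell by 64.5% at 3 h, from 58.4 ± 0.222 to 20.7 ± 0.368 (-1.45, SE 0.0539, interval -1.58 to -1.33, limma adjusted p 1.02e-05). At 18 h it was 26.4 ± 2.17, where it had thus dropped by 54.8% (-1.12, interval -1.24 to -0.99, limma adjusted p 2.03e-05). From 3 h to 18 h it rose (0.34, interval 0.21 to 0.46, limma adjusted p 0.00432). These 3 calls were kept in all 18 alternatives. The genotypes differed by 0.13 (-0.0006 to 0.25, limma adjusted p 0.195). In order of level, EGFR water and Neo water thus did not pass as different, and 18 h stood above 3 h. Sgk1 had the 17th lowest difference of 10874 at 3 h and the 23rd at 18 h, and moved from the 82.7th percentile of expression in EGFR water to the 55.8th at 3 h.

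Among 18 other genes of the SGK family, its activators and its substrates, 5 were higher and 4 lower at 3 h, 4 higher and 2 lower at 18 h, 1 higher and 1 lower from 3 h to 18 h, and 1 higher and 1 lower between the genotypes. The median of these 18 was -0.01 at both times. Foxo3, a transcription factor that SGK1 phosphorylates, fell from 15.6 ± 0.324 to 11.4 ± 0.276 FPKM at 3 h (-0.42, limma adjusted p 5.57e-04) and was 15.7 ± 0.278 at 18 h, a rise of 0.43 between the times (limma adjusted p 5.60e-04). Nedd4l, a ubiquitin ligase that SGK1 phosphorylates, rose from 5.37 ± 0.0433 to 7.38 ± 0.285 at 18 h (0.39, limma adjusted p 0.00208). Ndrg1, whose protein is a classical SGK1 substrate, was 28.4 ± 2.10 in Neo water and 9.83 ± 0.486 in EGFR water (-1.44, limma adjusted p 3.30e-04) and rose to 14.4 ± 1.32 at 18 h (0.50, limma adjusted p 0.00541). All of these calls were kept in all 18 alternatives. The kinase Sgk3, a relative named after its values were seen, was 19.5 in EGFR water, 21.8 at 3 h and 20.5 at 18 h.

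Tat (ENSMUSG00000001670, chromosome 8, 109990437 to 109999803, plus strand, protein-coding), the enzyme that starts tyrosine breakdown and a textbook glucocorticoid target of liver, was 10.8 and 10.8 FPKM in Neo water, 11.1 and 12.6 in EGFR water, 5.53 and 5.99 at 3 h and 6.16 and 4.64 at 18 h. The 4 EGF libraries were all below the 4 water libraries, while those of 3 h and 18 h overlapped. Its mean fell by 51.3% at 3 h, from 11.8 ± 1.08 to 5.76 ± 0.325 (-0.92, SE 0.110, interval -1.18 to -0.66, limma adjusted p 0.00156), and by 54.4% at 18 h, to 5.40 ± 1.08 (-1.01, interval -1.27 to -0.75, limma adjusted p 6.37e-04). Both calls were kept in all 18 alternatives. The times differed by -0.09 (-0.35 to 0.17, limma adjusted p 0.565) and the genotypes by 0.12 (-0.14 to 0.38, limma adjusted p 0.537). Tat had the lowest expression of the 7 genes, at the 15.1th to 37.1th percentile, and rested on an estimated 570 to 1590 fragments per library, for which counting error alone is up to 4.17%. Its differences ranked 34th and 32nd lowest of 10874 at 3 h and 18 h.

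The genes whose pattern over the 8 libraries was nearest to Sgk1 and Tat were found by the root-mean-square distance of log2(FPKM + 1), each gene centred on its own mean, among 8091 genes of mean FPKM of at least 5. Nearest to Sgk1 were Amotl2, an angiomotin family gene (distance 0.19), Mycl, a MYC family transcription factor (0.19), and Tat itself (0.23). Nearest to Tat was Abhd15, a hydrolase family gene (0.15). For comparison, Sgk1 and Tat deviate from their own means by 0.63 and 0.47. Amotl2 was 9.24 ± 0.354, 11.3 ± 0.332, 4.48 ± 0.0177 and 5.92 ± 0.540 FPKM in Neo water, EGFR water, 3 h and 18 h. Abhd15 was 9.68 ± 0.439, 10.2 ± 0.178, 5.55 ± 0.372 and 5.78 ± 0.0224. No p is given, since these genes were picked for likeness, and the other 5 genes were not searched because their group means spanned less than 0.5 log2 units.

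**Figure D4:**
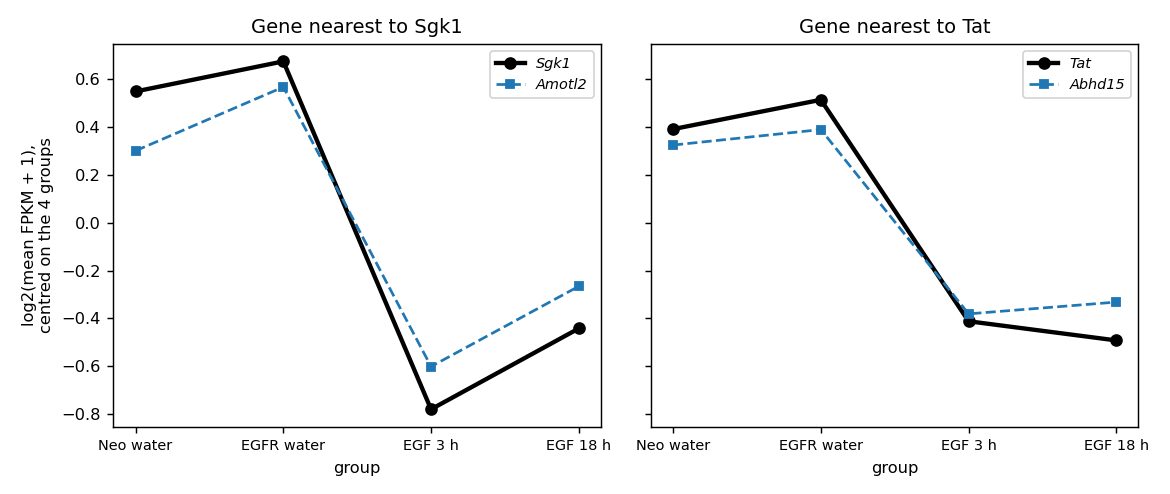
Group means as log2(mean FPKM + 1), centred on the 4 groups (y axis), by group (x axis), for Sgk1 (left) and Tat (right) in black and the gene nearest to each, Amotl2 and Abhd15, in blue. In both panels the lines are high in both water groups and low at 3 h and 18 h of EGF, and the Sgk1 line has the widest range.

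Mt1 (ENSMUSG00000031765, chromosome 8, 94179089 to 94180325, plus strand, protein-coding) and Mt2 (ENSMUSG00000031762, chromosome 8, 94172618 to 94173567, plus strand, protein-coding) are neighbours that encode metallothioneins, small cysteine-rich proteins that bind zinc and copper and are induced by metals through MTF1 as well as by glucocorticoids. Mt1 was 257 and 235 FPKM in Neo water, 203 and 185 in EGFR water, 184 and 170 at 3 h and 213 and 210 at 18 h. Mt2 was 132 and 118, 101 and 99.5, 103 and 96.5, and 111 and 101 in the same order. Both genes were highest in the Neo water libraries, which did not overlap with any EGFR library. For Mt2, 73.5% of the exon bases overlap an antisense gene, Gm45774. No source used here says whether counting used strand, so reads of the 2 cannot be told apart.

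Between the genotypes in water, Mt1 fell by 21.1%, from 246 ± 15.5 to 194 ± 13.1 (-0.34, interval -0.49 to -0.19, limma adjusted p 0.0293), and Mt2 fell by 19.9%, from 125 ± 10.3 to 100.1 ± 0.926 (-0.31, interval -0.47 to -0.16, limma adjusted p 0.0426). The Mt1 call was lost in 9 of 18 alternatives, with limma adjusted p of 0.0509 to 0.162 when 1 library of Neo water, EGFR water or EGF 18 h was left out. The Mt2 call was lost in 11 of 18, with 0.0506 to 0.188 when any 1 library but Neo water replicate 2 was left out. In both cases the difference stayed negative, at -0.41 to -0.26 for Mt1 and -0.40 to -0.23 for Mt2. Short protein-coding genes of 400 to 1200 bases, the class of the metallothioneins, had a median difference of 0.04 in this comparison, beside 0.01 for all genes.

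With EGF, Mt1 differed from EGFR water by -0.13 at 3 h (-0.28 to 0.02, limma adjusted p 0.157) and 0.13 at 18 h (-0.02 to 0.28, limma adjusted p 0.172). The 18 h difference of Mt1 passed in 1 of the 18 alternatives, protein-coding genes rescaled to their common sum (limma adjusted p 0.0455). Mt2 differed by -0.01 at 3 h (-0.17 to 0.15, limma adjusted p 0.931) and 0.08 at 18 h (-0.08 to 0.24, limma adjusted p 0.396). From 3 h to 18 h Mt1 rose by 19.5%, from 177 ± 9.88 to 212 ± 2.33 (0.26, limma adjusted p 0.0210). This call was lost without EGF 3 h replicate 2 and without either EGF 18 h library (limma adjusted p 0.0712 to 0.0917), under the common sum (0.0552) and with no filter (0.052). Mt2 differed by 0.09 between the times (-0.07 to 0.25, limma adjusted p 0.342). Short genes had medians of -0.12 at 3 h and -0.08 at 18 h against EGFR water, so they lay lower than all genes, and their part in the Mt1 values was not tested. The ratio of Mt1 to Mt2 FPKM lay between 1.76 and 2.08 in all 8 libraries, lowest in the 3 h libraries at 1.79 and 1.76. The transcripts share at most 20 identical bases in a row.

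Of 26 other genes listed for metal handling or as MTF1-type targets, 6 were higher and 2 lower at 3 h, 8 higher and 0 lower at 18 h, 6 higher and 3 lower from 3 h to 18 h, and 1 higher and 1 lower between the genotypes. Their median log2 difference was 0.07 at 3 h and 0.10 at 18 h, beside -0.04 and -0.03 for all genes. Of all 10874 genes tested, 1283 passed as higher at 3 h and 1437 at 18 h. Ndrg1 is counted both here and among the SGK substrates. It is the 1 gene lower between the genotypes and is among those higher at both times. The list also holds Mtf2, whose part in metal handling was not examined. Slc30a1, the zinc exporter of the plasma membrane and itself an MTF1 target, rose from 9.35 ± 0.309 to 12.5 ± 0.0772 FPKM at 3 h (0.38, limma adjusted p 0.00124) and was 11.7 ± 0.0680 at 18 h (0.29, limma adjusted p 0.00231). Mt3, the metallothionein of neurons, rose from 35.5 ± 0.474 to 41.9 ± 0.681 at 18 h (0.23, limma adjusted p 0.00309). Slc30a4, an exporter into vesicles, rose from 7.03 ± 0.337 to 8.95 ± 0.0584 at 3 h (0.31, limma adjusted p 0.00594). These 4 calls were kept in all 18 alternatives. The transcription factor Mtf1, named after its values were seen, was 8.0 in EGFR water, 8.78 at 3 h and 8.67 at 18 h, and passed neither test.

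Beyond the 4 targets, 19 further genes known to be induced by glucocorticoids in other cells could be tested, of 50 listed in all. At 3 h 3 of the 19 were higher and 5 lower, at 18 h 6 were higher and 5 lower, between the times 6 were higher and 4 lower, and between the genotypes 2 were higher and 3 lower. Their median log2 difference was -0.05 at 3 h and -0.03 at 18 h, beside -0.04 and -0.03 for all genes tested. The list thus held genes on both sides, and no other gene of it fell as far as Sgk1 and Tat at either time.

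Those that fell included Arrdc3, an arrestin-domain adaptor, from 16.4 ± 1.05 to 10.2 ± 0.0942 FPKM at 3 h (-0.64, limma adjusted p 0.00121). Gadd45b, a stress-response gene, fell from 11.4 ± 0.320 to 8.13 ± 0.182 at 3 h (-0.44, limma adjusted p 8.24e-04) and to 6.08 ± 0.149 at 18 h (-0.81, limma adjusted p 3.41e-05). Rgs2, a regulator of G protein signalling, rose from 4.79 ± 0.460 to 10.5 ± 0.975 at 3 h (0.98, limma adjusted p 0.00142) and was 9.84 ± 1.52 at 18 h (0.90, limma adjusted p 0.00130). Errfi1, an inhibitor of the EGF receptor, rose from 9.78 ± 0.115 to 15.3 ± 0.911 at 3 h (0.60, limma adjusted p 3.26e-04). At 18 h Irs2, an adaptor of the insulin receptor, rose to 9.27 ± 0.625 from 6.36 ± 0.0103 (0.48, limma adjusted p 0.00157), and Mfge8, a secreted bridging protein of phagocytosis, to 14.0 ± 0.337 from 10.2 ± 0.0332 (0.43, limma adjusted p 2.56e-04). All of these calls were kept in all 18 alternatives.

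A pair of classical targets was looked up after the values were seen. Tsc22d3, which encodes GILZ, fell from 34.6 ± 0.267 to 31.1 ± 1.36 FPKM at 3 h (-0.15, limma adjusted p 0.0266), a call lost without EGFR water replicate 1, EGFR water replicate 2 or EGF 3 h replicate 1 and in 3 other alternatives. At 18 h it was 29.6 ± 0.699 (-0.22, limma adjusted p 0.00544), a call lost under the common sum. Fkbp5 differed by 0.14 at 3 h (limma adjusted p 0.0923) and 0.07 at 18 h (limma adjusted p 0.352). The 3 h difference of Fkbp5 passed in 2 of the 18 alternatives. The plot of the list sets all 23 tested genes side by side.

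**Figure D5:**
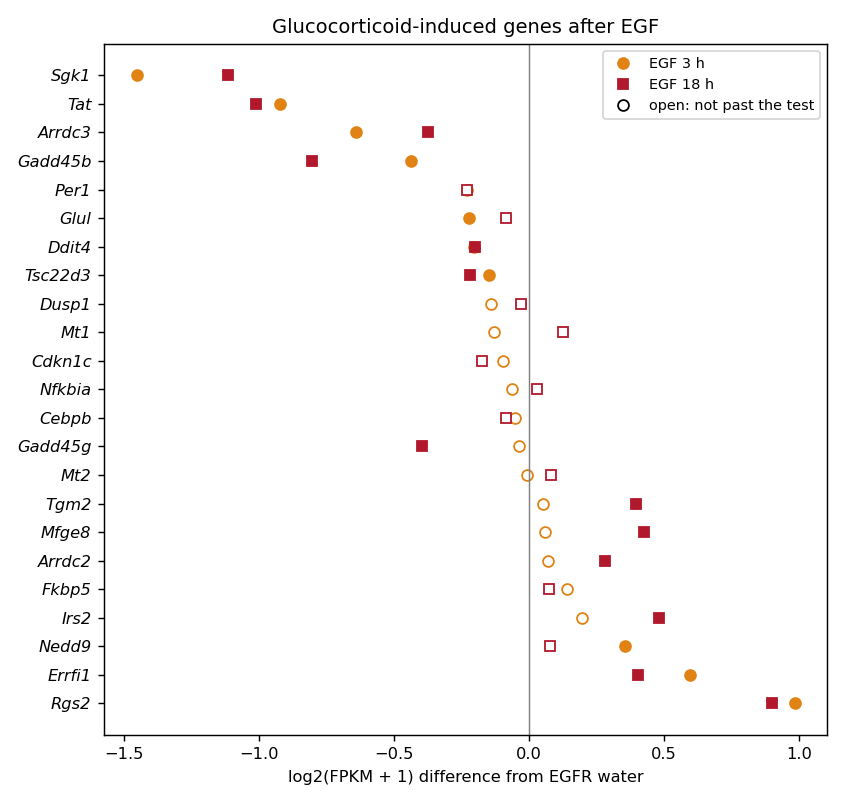
Difference in log2(FPKM + 1) from EGFR water (x axis) of the 23 tested glucocorticoid-induced genes (y axis, ordered by the 3 h value) at 3 h (circles) and 18 h (squares), filled where the limma adjusted p was below 0.05. Sgk1 and Tat lie farthest left, Rgs2 lies farthest right at 0.98 and 0.90, and Mt1 and Mt2 are open at both times.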

How the data were processed

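RNA-seq of 8 AtT-20 libraries was analysed from the FPKM values that the authors deposited for 12193 gene loci on mm10. The tools listed in the submitters' processing notes, without their roles, are HTSeq 0.5.4, TopHat2 2.0.8, Trimmomatic 0.22 and DESeq (version not stated). For the program behind FPKM, its annotation and its strand setting, no statement was found in the sources used here. Because FPKM divides by library total, abundant transcripts move all others. Starts in the files were read as 0-based, since 9829 of 12129 loci with a GENCODE M21 identifier match it that way, and are printed 1-based.

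Loci that reached FPKM 1 in 2 or more libraries (10874) were tested with limma 3.58.1 (trended empirical Bayes, 4 residual and 3.29 prior degrees of freedom) in R 4.3.3 on log2(FPKM + 1), all 4 groups in 1 fit, with Benjamini-Hochberg adjustment over all loci within a comparison and a threshold of 0.05. Depth was estimated from the smallest FPKM steps of 41 genes with a single transcript, and fragments per gene from it and the longest transcript. Counting error covers counting only. The 7 genes, the 10 lists and the tests were chosen with earlier results of these data known. Named by rule were the 7 genes, Pomc, Egfr, Smarca2, Hdac1 and Nr3c2, which had no value. Per list and comparison, so were up to 4 genes past the test of largest difference and mean FPKM of at least 5. Of these the report gives mainly those that kept their call in every alternative, which was so for 1 of 11 between the genotypes, 9 of 26 at 3 h, 10 of 27 at 18 h and 13 of 24 between the times. Genes named from the lists of cell markers were not followed over the alternatives and are outside these counts. The 12 corticotrope markers tested were 0 higher and 3 lower between the genotypes, 1 and 2 at 3 h, 5 and 2 at 18 h, and 6 and 2 between the times.

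The 18 alternatives were a pseudocount of 0.1, no filter, FPKM of at least 5, median-ratio rescaling, rescaling to a common sum, a fit without the variance trend, a replicate block, each of the 8 libraries left out, only the 2 groups compared and 2 chosen after seeing the data, namely a restriction to protein-coding genes, as deposited and rescaled to their common sum. Transcripts were aligned with minimap2 2.31, and figures drawn with Python 3.11.15, pandas 2.3.3, NumPy 2.4.6 and matplotlib 3.10.9. Part of the search for genes of like pattern is not reported here.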

Additional observations from a re-analysis of the deposited data

Results flagged for a closer look

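The 18 h and 3 h effects of EGF share the EGFR water libraries, so their difference is the direct contrast of EGF 18 h with EGF 3 h, tested with limma and adjusted over all genes (33.7% of which passed). With no water group at 18 h, EGF and time in culture cannot be told apart in the 18 h effects or in this contrast. Among the 7 genes, 3 were flagged because this difference passed: Hdac2 (-0.19, with effects of -0.0007 at 3 h and -0.19 at 18 h), Sgk1 (0.34, with -1.45 and -1.12) and Mt1 (0.26, with -0.13 and 0.13). For Mt1 neither effect passed by itself.

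Among the list genes, the same contrast was higher for Foxo3 (0.43), Sin3a (0.40), Phf21a (0.39), Slc39a3 (0.37), Mfge8 (0.37), Tgm2 (0.35), Slc39a11 (0.32), Irs2 (0.28), Bag1 (0.28), Smarca2 (0.25), Sap30l (0.21) and Stub1 (0.20). It was lower for Gadd45b (-0.37), Hmox1 (-0.36), Brd9 (-0.35), Ptges3 (-0.31), Slc30a4 (-0.27), Mta2 (-0.22), Hspa8 (-0.21), Ss18 (-0.19), Phf10 (-0.19), Psmc3ip (-0.18), Hexim1 (-0.16) and Tsc2 (-0.15). Limma adjusted p ran from 5.60e-04 for Foxo3 to 0.0419 for Psmc3ip. Left-out libraries ended some of these calls: EGF 18 h replicate 1 for Phf21a, Irs2, Ptges3, Hspa8, Hmox1, Slc30a4, Psmc3ip, Hexim1 and Tsc2, EGF 18 h replicate 2 for Phf21a, Hspa8, Stub1, Hmox1, Psmc3ip, Hexim1 and Tsc2, EGF 3 h replicate 1 for Psmc3ip and Tsc2, and EGF 3 h replicate 2 for Phf21a, Irs2, Hmox1, Psmc3ip, Hexim1 and Tsc2. Other settings ended calls as well: the common sum for Sap30l (limma adjusted p 0.128), Stub1 (0.142), Hexim1 and Mt1, no filter for Psmc3ip and Mt1, no variance trend and the replicate block for Psmc3ip, and a fit of only the 2 groups for Hspa8. Mt1 also lost its call without EGF 3 h replicate 2, EGF 18 h replicate 1 or EGF 18 h replicate 2.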

How the results depend on the processing

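Over the 18 alternatives, Sgk1 and Tat kept their direction and their calls at both times of EGF, as did Nr3c1 at 18 h, Hdac2 and Sgk1 between the times. Their 18 h values ran from -1.20 to -1.04 for Sgk1, -1.19 to -0.84 for Tat and -0.37 to -0.31 for Nr3c1. The number of the 7 genes called between the genotypes went from 2 to 0 with no filter, with a common sum and with only the 2 groups, to 1 with no variance trend, and to 0 to 1 when 1 library was left out. Rescaling to a common sum changed the genes called to 412 between the genotypes, 1786 at 3 h, 1894 at 18 h and 2193 between the times, from 653, 3425, 3467 and 3663. With only the 2 groups 237 genes were called between the genotypes, and with protein-coding genes rescaled to their common sum 1095. Leaving out 1 library gave 86 to 676 genes between the genotypes, 1432 to 3352 at 3 h, 1790 to 3601 at 18 h and 1863 to 3638 between the times. The lowest counts came without EGFR water replicate 1, EGFR water replicate 2, EGFR water replicate 1 and EGF 18 h replicate 1, in that order, where a lone library is assumed to vary like the other groups. Scaling moved the split of calls: 338 higher and 315 lower between the genotypes became 309 and 103 under the common sum, 1283 and 2142 at 3 h became 1772 and 1562 under median ratios and 1346 and 440 under the common sum, 1437 and 2030 at 18 h became 1857 and 1610 and 1189 and 705, and 1922 and 1741 between the times became 863 and 1330 under the common sum. The cause was not tested.

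Directions turned only in differences that had not passed. At 3 h Hdac2 became 0.0387 under median ratios, 0.0811 under the common sum and 0.0599 under the protein-coding common sum, and Mt2 became 0.0304, 0.0727 and 0.0516. Between the genotypes, the common sum gave 0.0533 for Nr3c1, 0.0442 for Smarca4 and 0.0206 for Fkbp5, and the protein-coding common sum gave -0.0021 for Hdac2. Between the times, the common sum gave -0.0286 for Smarca4. Leaving out 1 library spread these differences across 0: Hdac2 from -0.0266 to 0.0253 and Mt2 from -0.0527 to 0.035 at 3 h, Smarca4 from -0.0854 to 0.0071 and Hdac2 from -0.0099 to 0.042 between the genotypes, and Smarca4 from -0.0128 to 0.0483 and Tat from -0.2622 to 0.0833 between the times.

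Replicate numbers did not pair the libraries across genes as a whole (correlation of deviations -0.172 to 0.31 over the 6 pairs of groups). This does not exclude a shared replicate effect for single genes. For Mt1 and Mt2, replicate 1 was above replicate 2 in all 4 groups. The replicate block lowered the SE from 0.0642 to 0.0395 for Mt1 and from 0.0678 to 0.0435 for Mt2. A fit with the replicate block called 382, 3082, 3189 and 3373 genes in the 4 comparisons and 2, 3, 4 and 3 of the 7 genes, for these 7 the same calls as without it. With 2 libraries a group, the intervals of Smarca4 reached about 0.1 log2 units on either side, without adjustment for the number of genes. Larger differences could also fail the test. Hdac1, of similar SE (0.0409), differed by -0.126 between the genotypes and did not pass (limma adjusted p 0.114).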
